A study of Mus musculus with 6 samples.

Results

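Hepatic stellate cells and portal fibroblasts are the main mesenchymal cells of the liver, and 10 genes used to recognise them are described here in cells sorted from fetal mouse liver by the fluorescence of a Sox9 reporter. The genes were chosen by name, as stellate cell genes (Des, Lrat, Reln, Ngfr), genes of both cell types or of contractile cells (Pdgfra, Pdgfrb, Acta2) and portal fibroblast genes (Thy1, Eln, Fbln2). All 10 were among the 52550 genes measured. The rule used the genes' names and not their levels.

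The cells came from embryos of the Sox9-GFP mouse on the CD-1 background, whose cells make green fluorescent protein where the gene of the transcription factor SOX9 is active. In fetal liver this is above all the lineage of the cholangiocytes, the epithelial cells of the bile ducts. Livers were dissociated with enzymes, hematopoietic cells were taken out with magnetic beads, and GFP+ cells were sorted. There were 3 libraries of total RNA at embryonic day 16 (E16) and 3 at embryonic day 18 (E18), lettered A, B and C, all of them made from pooled livers, and no treatment or mutation set the stages apart. The study sequenced these cells to learn whether cholangiocytes express ion transporters and water channels when duct lumens begin to form, so the mesenchymal genes are read here in a sort that was not aimed at mesenchyme.

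Stellate cells lie between the hepatocytes and the sinusoids, store vitamin A as retinyl esters and wrap the sinusoids with processes that hold intermediate filaments. Portal fibroblasts lie in the connective tissue around the portal vein and the bile ducts and lay down elastic fibres there. Both answer to platelet-derived growth factor (PDGF), and both can become contractile myofibroblasts that make scar matrix when the liver is injured.

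The promoters of 3 stellate cell genes are shown first, because their levels behaved differently below while the genes mark the same cell. Each is the run of bases just upstream of the transcription start, printed 5′ to 3′ on the gene's strand, from RefSeq on GRCm38.p6. The windows are chr3:82903975-82904224 on the minus strand for Lrat, chr1:75360042-75360291 on the plus strand for Des and chr5:22344706-22344955 on the minus strand for Reln. Capitals mark every match on either strand to one of the motifs searched, which were CAGCTG, a form of the E-box that basic helix-loop-helix factors bind, CATTCC, the motif of the TEAD factors, TATAAA, the core of the TATA box, GGGCGG, known as the GC box and reading CCGCCC on the other strand, and CCAAT, named after its letters.
Lrat: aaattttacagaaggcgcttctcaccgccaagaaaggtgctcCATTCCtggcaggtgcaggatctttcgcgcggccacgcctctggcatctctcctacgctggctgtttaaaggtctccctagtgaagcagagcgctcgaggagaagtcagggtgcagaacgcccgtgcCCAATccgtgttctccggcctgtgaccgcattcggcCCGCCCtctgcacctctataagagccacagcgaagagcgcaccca
Des: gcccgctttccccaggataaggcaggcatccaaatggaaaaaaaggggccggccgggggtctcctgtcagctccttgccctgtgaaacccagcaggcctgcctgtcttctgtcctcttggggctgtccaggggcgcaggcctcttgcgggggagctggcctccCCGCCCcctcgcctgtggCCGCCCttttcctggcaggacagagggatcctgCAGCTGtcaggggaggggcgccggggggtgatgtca
Reln: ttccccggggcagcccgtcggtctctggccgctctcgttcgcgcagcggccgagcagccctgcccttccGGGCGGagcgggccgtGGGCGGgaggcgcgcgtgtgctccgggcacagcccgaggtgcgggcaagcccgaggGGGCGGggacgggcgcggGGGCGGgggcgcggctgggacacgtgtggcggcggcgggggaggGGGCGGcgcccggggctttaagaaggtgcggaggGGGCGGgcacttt
The Lrat window held 1 CATTCC, 1 CCAAT and 1 GC box. The Des window held 1 CAGCTG, 36 to 31 bases before the start, and 2 GC boxes. The Reln window held 6 GC boxes and had a GC content of 80.0%, against 67.2% for Des, 59.2% for Lrat and a median of 52.4% over all promoters. Of the 32851 promoters searched over the same length, 32.7% held the GC box, 33.8% the CCAAT motif, 13.0% the E-box, 12.6% the TEAD motif and 12.4% the TATA motif. The CArG box, the site of serum response factor, was in 1.47% of promoters and in none of the windows of the 7 members found in the table, of which that of Acta2 held only 33 bases free of annotated exons and that of Fbln2 none. These matches are a description of the letters.

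Levels are given as TPM, transcript abundances that the authors scaled by gene length and library total, so that genes can be compared with each other. The stages were compared with limma on log2(TPM + 1) with Benjamini-Hochberg adjustment and a threshold of 0.05, for all 22452 genes whose mean reached 1 TPM. All fold changes below are E18 over E16 on this log2 scale, which understates changes of low genes. Recovered reads came to between 13093937 and 26206374 per library, fewer at E18 than at E16. With 3 libraries against 3, the smallest two-sided p of an exact permutation test is 0.1, so single genes cannot pass 0.05 by that test, and nothing in the labels says how far the replicates were separate litters.

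TPM moved in general between the stages. Over all genes tested the median fold change was 0.42 (log2), and 83.3% of the 7000 genes past the threshold were higher at E18. After median-of-ratios scaling, which centres the libraries on each other, the median was 0.01 and 38.1% of the calls were higher. The members are therefore given on both scales where the scale decided the call.

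Of the 10 genes, 9 reached a mean of 1 TPM and were tested. Lrat, Pdgfra, Eln and Fbln2 rose, none fell, and Des, Reln, Pdgfrb, Acta2 and Ngfr did not pass the test. Over all genes tested, 26.0% were called higher, so 4 of 9 is to be read against that share. The median log2 fold change of the 9 was 1.02, beside 0.42 over all genes tested. After median-of-ratios scaling none of the 9 passed the threshold in limma. Leaving out E16 replicate C or E18 replicate B also left 0, leaving out E16 replicate B, E18 replicate A or E18 replicate C left Eln alone, and leaving out E16 replicate A left 4. In bulk RNA, fewer cells of a type and less RNA per cell cannot be told apart.

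Among the stellate cell genes, Lrat rose and the others did not pass the test. Lrat encodes lecithin retinol acyltransferase, the enzyme that makes the retinyl esters stellate cells store (chr3:82892579-82903973, minus strand, GRCm38). It measured 5.10, 2.59 and 2.18 TPM in the E16 libraries A, B and C, and 7.08, 12.2 and 9.57 TPM in the E18 libraries, an order kept below. The lowest E18 library thus lay above the highest E16 library. The mean went from 3.29 ± 1.58 TPM to 9.62 ± 2.57 TPM (SD, n = 3 each). The log2 fold change was 1.34 with a standard error of 0.32 (limma, Benjamini-Hochberg adjusted p = 0.0236). With median-of-ratios scaling it was 0.96 with an adjusted p of 0.0608 in limma. Lrat was the only member whose highest library was not E18 replicate C.

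Des encodes desmin, the muscle-type intermediate filament protein that is the classical rodent stellate cell marker (chr1:75360329-75368579, plus strand). It measured 5.03, 2.77 and 3.37 TPM at E16 and 2.06, 5.11 and 6.30 TPM at E18. The stages overlapped, and the lowest and the highest library were both at E18. The log2 fold change was 0.15 ± 0.38 (SE), with a limma adjusted p of 0.768. Of its exon bases, 5.86% lie over the opposite-strand gene Gm15179.

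Reln encodes reelin, a large secreted glycoprotein best known for placing neurons, which stellate cells also make (chr5:21884454-22344702, minus strand). It was by far the most abundant of the 10, with 73.1, 57.1 and 58.5 TPM at E16 and 65.8, 78.6 and 92.4 TPM at E18. It rested on 8904 to 14872 reads per library, so counting error was small beside the spread between libraries. E18 replicate A was below E16 replicate A, and the log2 fold change of 0.32 ± 0.16 (SE) did not pass the threshold (limma adjusted p = 0.166). The mean of 62.9 TPM at E16 stood at percentile 91.2 of the protein-coding genes and the mean of 78.9 TPM at E18 at percentile 91.7.

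Ngfr encodes the p75 neurotrophin receptor, which stellate cells share with Schwann cells and nerve (chr11:95568818-95587735, minus strand). It measured 5.28, 2.60 and 2.76 TPM at E16 and 2.50, 4.03 and 7.36 TPM at E18. The lowest and the highest of the 6 libraries were both at E18. Its log2 fold change was 0.26 ± 0.39 (SE), with a limma adjusted p of 0.615. Under median-of-ratios scaling the fold changes of Des, Reln and Ngfr lay below 0, at -0.21, -0.14 and -0.10.

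**Figure D1:**
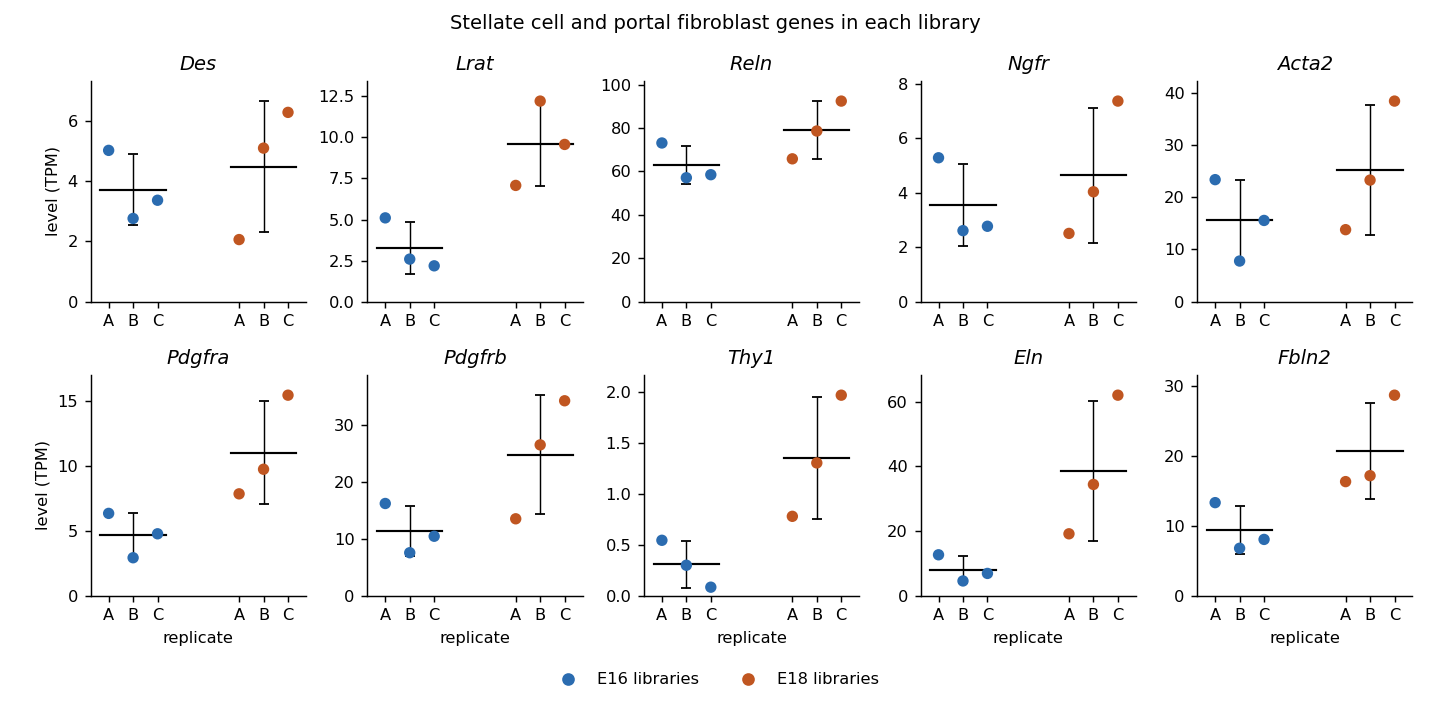
Level of each of the 10 genes in TPM (vertical axis, a separate linear scale from 0 per gene) in replicates A, B and C at E16 (blue) and E18 (orange), with the mean as a line and the SD as a bar. The stages do not overlap for Lrat, Pdgfra, Thy1, Eln and Fbln2, and 9 of the 10 genes are highest in E18 replicate C.

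Of the PDGF receptors, Pdgfra rose and Pdgfrb did not pass the test. Pdgfra encodes the alpha receptor, found on fibroblasts and on quiescent stellate cells (chr5:75152292-75198215, plus strand). It measured 6.35, 2.93 and 4.78 TPM at E16 and 7.86, 9.76 and 15.5 TPM at E18, and the stages did not overlap. The log2 fold change was 1.08 ± 0.32 (SE), with a limma adjusted p of 0.0433. It was 0.67 after median-of-ratios scaling, with an adjusted p of 0.215 in limma. Of its exon bases, 4.55% lie over Gm42802 and 1.66% over Gm42803, both on the other strand.

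Pdgfrb encodes the beta receptor, the general receptor of pericytes and stellate cells (chr18:61045150-61085061, plus strand). It measured 16.2, 7.56 and 10.5 TPM at E16 and 13.5, 26.5 and 34.3 TPM at E18. E18 replicate A lay between the E16 libraries and the other E18 libraries lay above all of them. The mean went from 11.4 ± 4.41 to 24.8 ± 10.5 TPM (SD, n = 3 each), and the log2 fold change of 1.02 ± 0.38 (SE) had a limma adjusted p of 0.0780. Its fold change was thus close to those of Pdgfra and Fbln2, with a wider error.

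Acta2 encodes smooth muscle alpha-actin, made by vascular smooth muscle and by myofibroblasts (chr19:34241090-34255590, minus strand). It measured 23.4, 7.77 and 15.6 TPM at E16 and 13.8, 23.3 and 38.4 TPM at E18. The stages overlapped, and the E16 libraries alone spanned a 3.01-fold range. The log2 fold change was 0.67 ± 0.46 (SE), with a limma adjusted p of 0.285. Reads that match near-identical actin genes equally well cannot be assigned to 1 of them. Actg2, the enteric smooth muscle actin, measured 5.24, 1.73 and 3.78 TPM at E16 and 2.16, 5.65 and 8.38 TPM at E18, whereas the skeletal actin Acta1 was at most 0.892 TPM and the cardiac actin Actc1 at most 1.51 TPM in any library.

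Eln, Fbln2 and Thy1, the portal fibroblast genes, did not overlap between the stages, which was also so for 45.0% of all genes tested. Of the 13 further portal fibroblast genes listed below, 9 did not overlap. Eln encodes tropoelastin, the core of the elastic fibre (chr5:134702593-134747323, minus strand). It measured 12.7, 4.56 and 6.89 TPM at E16 and 19.2, 34.4 and 62.1 TPM at E18. This was the largest change of the 10 genes on the log2 scale, 2.08 ± 0.47 (SE), with a limma adjusted p of 0.0212. After median-of-ratios scaling it was 1.65 with an adjusted p of 0.0657 in limma. Of its exon bases, 3.30% lie over the opposite-strand gene Gm30003.

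Fbln2 encodes fibulin-2, a matrix protein that binds elastic fibres and basement membranes (chr6:91212455-91272540, plus strand). It measured 13.3, 6.78 and 8.05 TPM at E16 and 16.3, 17.2 and 28.7 TPM at E18. Every E18 library was above every E16 library, and the log2 fold change was 1.07 ± 0.30 (SE), with a limma adjusted p of 0.0366. It was 0.64 after median-of-ratios scaling, with an adjusted p of 0.201 in limma.

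Thy1 encodes a small surface glycoprotein of portal fibroblasts, also carried by T cells and neurons (chr9:44043384-44048579, plus strand). It measured 0.545, 0.30 and 0.0837 TPM at E16 and 0.781, 1.31 and 1.97 TPM at E18, and its mean over the 6 libraries was below the 1 TPM needed to be tested. These values stand for 14, 7 and 2 reads at E16 and 16, 20 and 24 reads at E18. E16 replicate C was under the floor of 3 reads, which is 0.126 TPM there. Its exact 95% binomial interval was 0.0101 to 0.302 TPM, which covers counting error only. The intervals of E16 replicate A, 0.298 to 0.915 TPM, and of E18 replicate A, 0.446 to 1.27 TPM, overlapped. With no filter on low values the log2 fold change of Thy1 was 0.83, with a limma adjusted p of 0.122.

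Non-overlap was common in these libraries. The 5 genes Lrat, Pdgfra, Thy1, Eln and Fbln2 of the 10 had every E18 library above every E16 library, against 45.0% of all genes tested. The highest library was E18 replicate C for 9 of the 10 genes, against 17.3% of all genes tested. These genes share their libraries, and 9 of them ran in the order A, B, C at E18. Depth ran the other way, with 22643868, 17057572 and 13093937 recovered reads in E18 replicates A, B and C, so the library that was highest for 9 genes was also the shallowest of the 6. The part of depth in this order was not tested. The sum of the 10 genes was 161, 94.9 and 113 TPM at E16 and 149, 212 and 297 TPM at E18. E18 replicate A was thus below E16 replicate A in the sum.

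**Figure D2:**
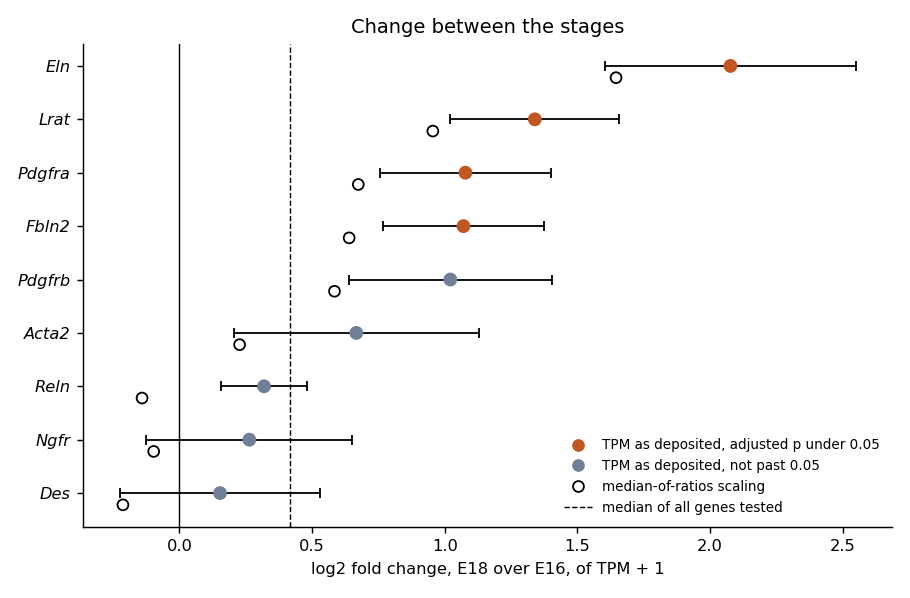
Log2 fold change of TPM + 1, E18 over E16, with its standard error (horizontal axis), for the 9 genes tested, with filled points for the deposited TPM (orange past an adjusted p of 0.05, grey not) and open points for median-of-ratios scaling. Every open point lies to the left of its filled point, and the dashed line marks the median of all genes tested, 0.42.

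The order of the levels changed little apart from Eln and Lrat. Reln stood first at both stages, above every library of any other member. At E16 it was followed by Acta2, Pdgfrb, Fbln2 and Eln, whose ranges overlapped from one neighbour to the next. Pdgfra, Des, Ngfr and Lrat came after them with means of 4.69, 3.72, 3.55 and 3.29 TPM and overlapping ranges, and Thy1 was last at a mean of 0.310 TPM. At E18 Eln stood second at 38.5 ± 21.7 TPM (SD, n = 3), a range that overlapped those of Acta2, Pdgfrb and Fbln2. Lrat had passed Ngfr and Des, with 9.62 TPM against 4.63 and 4.49 TPM.

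Ratios inside a library do not depend on its scaling. Lrat over Des was 1.01, 0.935 and 0.646 at E16 and 3.43, 2.39 and 1.52 at E18, without overlap. Reln over Lrat was 14.3, 22.1 and 26.8 at E16 and lower at E18, with 9.29, 6.43 and 9.65, again without overlap. Both ratios hold Lrat, the stellate cell gene that rose. Reln over Des overlapped, at 14.5, 20.6 and 17.3 against 31.9, 15.4 and 14.7, and so did Des over Ngfr, at 0.953, 1.06 and 1.22 against 0.825, 1.27 and 0.856.

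Among the portal fibroblast and contractile genes the ratios with Eln differed. Eln over Pdgfrb was 0.780, 0.603 and 0.659 at E16 and 1.42, 1.30 and 1.81 at E18, and Eln over Acta2 was 0.542, 0.586 and 0.443 at E16 and 1.39, 1.48 and 1.61 at E18. By contrast, Pdgfrb over Pdgfra overlapped, at 2.55, 2.58 and 2.19 against 1.72, 2.72 and 2.22.

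The stellate cell genes were also set against the portal fibroblast genes as sums. Des, Lrat, Reln and Ngfr over Thy1, Eln and Fbln2 gave 3.34, 5.58 and 4.44 at E16 and 2.14, 1.89 and 1.25 at E18. Without Reln, which makes up most of the first sum, the ratio was 0.581, 0.684 and 0.554 at E16 and 0.321, 0.404 and 0.251 at E18. The stages did not overlap either way, and the portal fibroblast sum rests mostly on Eln and Fbln2. These ratios were chosen with the levels known and are given without a test.

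**Figure D3:**
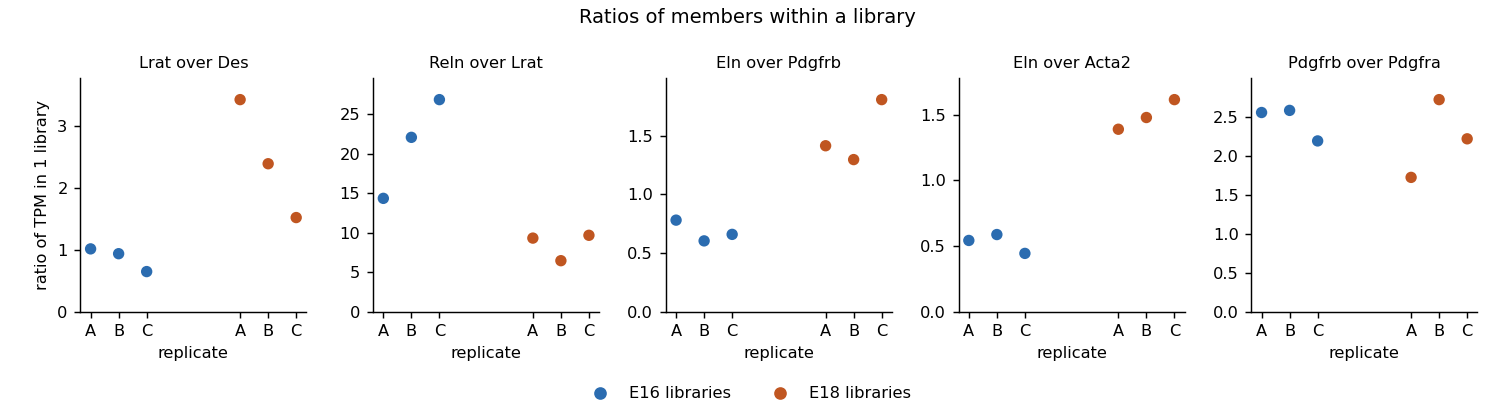
Ratio of the TPM of 2 genes in the same library (vertical axis, linear from 0) for each library of E16 (blue) and E18 (orange), by letter. Lrat over Des, Eln over Pdgfrb and Eln over Acta2 are higher in every E18 library, Reln over Lrat is lower in every one, and Pdgfrb over Pdgfra overlaps.

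Other genes of the same cells were counted from lists. Of 18 further stellate cell genes, 17 were tested, 10 rose and none fell, and the median was 1.11 on the log2 scale beside 0.42 over all genes. The largest were Dcn, the matrix proteoglycan decorin, at 1.81, Tcf21, a mesenchymal transcription factor, at 1.72, Hhip, a Hedgehog antagonist, at 1.52, and Colec10, a collectin, at 1.497. After median-of-ratios scaling 4 of the 17 rose, Dcn, Tcf21, Hhip and Bambi. Leaving out a library gave 3 rises without E18 replicate B, 4 without E16 replicate C, 5 without E16 replicate B or E18 replicate A, 6 without E18 replicate C and 9 without E16 replicate A.

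All 13 further portal fibroblast genes were tested, 5 rose and none fell, with a median of 1.08. Gas6, the ligand of the TAM receptors, changed by 2.09, Entpd2, an ectonucleotidase of portal fibroblasts, by 1.86, Mfap4 by 1.37, Slit2 by 1.23 and Ogn by 1.05. Gas6 was abundant, at 21.2 to 72.7 TPM at E16 and 190 to 232 TPM at E18. Gas6 was highest in E18 replicate B and Entpd2 in E18 replicate A, and both were lowest in E16 replicate C. Of the 13 genes, 9 were highest in E18 replicate C, as most members were. After median-of-ratios scaling 2 rose, Gas6 and Entpd2. The count was 1 without E18 replicate B, 2 without E16 replicate B, E16 replicate C or E18 replicate C, 3 without E18 replicate A and 4 without E16 replicate A.

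Elastic fibre assembly was represented by 10 genes, of which 9 were tested, 6 rose and 1 fell. The collagen and elastin cross-linking enzymes Lox and Loxl1 changed by 1.71 and 1.61, Ltbp4 by 1.53, Mfap2 by 1.36, Fbln5 by 1.29 and Efemp2 by 0.69. Emilin1 fell by 1.32 on the log2 scale, from 106 ± 32.3 to 41.2 ± 9.24 TPM (SD, n = 3 each). After median-of-ratios scaling Loxl1 and Mfap2 rose and Emilin1 fell. The rises numbered 3 without E18 replicate A or E18 replicate B and 5 without any 1 of the others.

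The fibrillar matrix genes of activated mesenchyme were 10, of which 4 rose, Col6a3 by 1.46, Postn by 1.44, Col5a2 by 1.42 and Sparc by 1.22, and none of them passed after median-of-ratios scaling in limma. The rises numbered 0 without E18 replicate B or E18 replicate C, 1 without E16 replicate B, E16 replicate C or E18 replicate A, and 3 without E16 replicate A. Col1a1, the main chain of type I collagen, measured 63.5 ± 24.4 and 172 ± 91.7 TPM with a limma adjusted p of 0.0555.

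Of 12 smooth muscle and pericyte genes, 9 were tested, 2 rose and 1 fell. The 2 that rose are 22.2% of those tested, which is no more than the 26.0% of all genes called higher. Those that rose were Kcnj8 by 1.64 and Abcc9 by 1.59, which encode the 2 parts of a potassium channel of pericytes, and Smtn, for the smooth muscle protein smoothelin, fell by 0.73 on the log2 scale. Myh11, the smooth muscle myosin, measured 2.13 ± 1.42 and 4.17 ± 2.45 TPM (limma adjusted p = 0.275). Tagln, Lmod1 and Synpo2 were under a mean of 1 TPM. After median-of-ratios scaling 1 of the 9 rose, Kcnj8, and 1 fell, Smtn. Without any 1 of the E18 libraries 1 gene rose, and Smtn kept its call only without E16 replicate B or E18 replicate C.

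The partners of the members' own pathways were measured too. Of the 4 PDGF ligands, Pdgfd rose by 2.47, Pdgfc by 2.03 and Pdgfa by 0.92, and Pdgfb measured 35.0 ± 13.1 and 21.4 ± 0.626 TPM (limma adjusted p = 0.103). Pdgfd went from 14.7, 22.7 and 5.09 TPM to 76.6, 70.3 and 68.9 TPM, an order of libraries unlike that of the receptors. Of the reelin receptors and adaptor, Vldlr rose by 1.12 and Dab1 by 1.35, and Lrp8 measured 5.68 ± 1.88 and 2.21 ± 1.07 TPM (limma adjusted p = 0.0501). After median-of-ratios scaling Pdgfd, Pdgfc, Vldlr and Dab1 still rose, Pdgfa did not pass and Lrp8 fell. Without E18 replicate A none of the ligands, receptors or the adaptor passed the threshold, and without E18 replicate B 1 ligand did.

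Of 8 neurotrophins and partners of p75, 4 were tested, with Bdnf up by 1.31 and Sort1, encoding sortilin, up by 0.70. Of 14 genes of retinoid uptake, binding and esterification, 8 were tested and 2, or 25.0%, rose, near the share of all genes. Aldh1a2, a retinoic acid synthesising enzyme, rose by 1.96 and Dgat1 by 0.81, while Pnpla3, a lipase that also acts on retinyl esters, fell by 1.27 on the log2 scale. The list's median was 0.10 and lay below 0 under other scalings. Lrat thus rose in a list that had no common direction. Without E18 replicate A no gene of either list passed the threshold, and without E18 replicate B only 1, Pnpla3, did. After median-of-ratios scaling Bdnf rose, Bex3 and Pnpla3 fell and no retinoid gene rose.

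**Figure D4:**
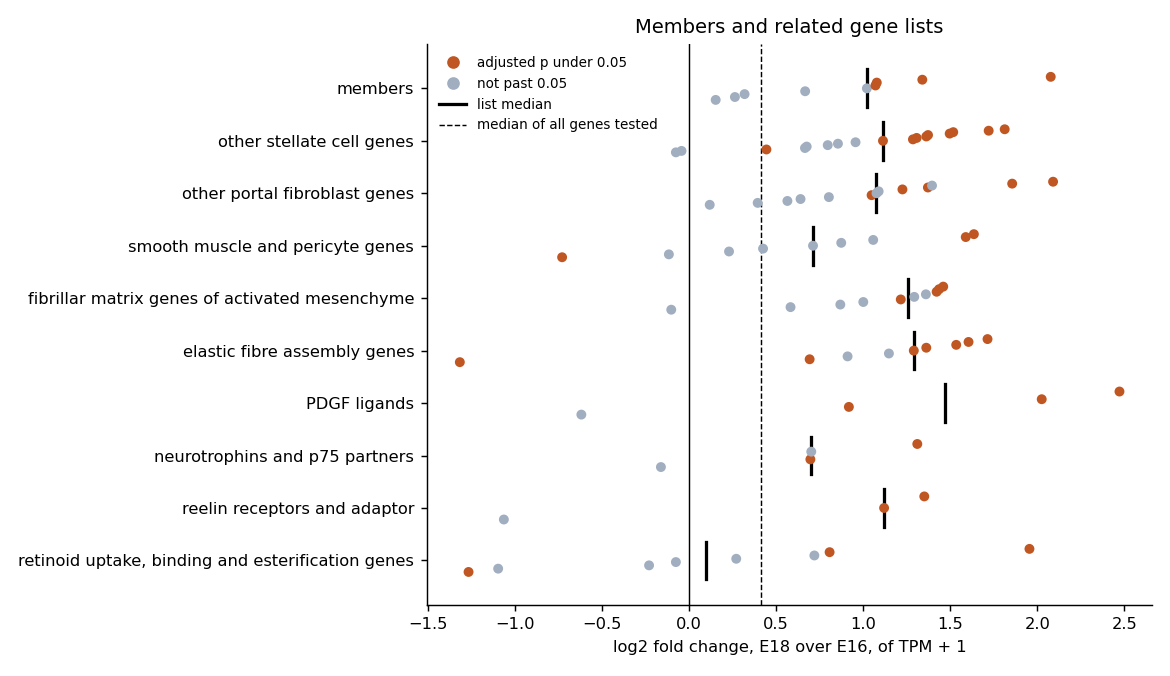
Log2 fold change of TPM + 1, E18 over E16 (horizontal axis), of each gene tested in the 10 members and the 9 related lists, with 1 point per gene (orange past an adjusted p of 0.05, grey not) and a bar at each list's median. The medians run from 0.10 for the retinoid genes to 1.47 for the PDGF ligands, and the dashed line marks the median over all genes, 0.42.

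Markers of other cells that the sort could hold were read in the same libraries. All 7 mesothelial markers rose, with a summed level of 12.5 to 36.5 TPM at E16 and 94.1 to 143 TPM at E18, and the marker Msln, for mesothelin, went from 0.178 to 2.70 TPM at E16 to 14.2 to 38.0 TPM at E18. At least 5 of the 7 stayed higher whichever library was left out, and 6 after median-of-ratios scaling. Krt7, a keratin that is also among the cholangiocyte markers, supplied most of the E16 sum, and without it the sum was 4.56 to 12.6 TPM at E16 and 47.2 to 98.4 TPM at E18. Endothelial markers summed to 113 to 183 and 103 to 202 TPM and were lowest in E18 replicate A, as were Des and Ngfr. Of the 8, Emcn was called higher, a call lost when any 1 library was left out, and after median-of-ratios scaling none was higher and Tie1 was lower in limma (adjusted p = 0.0427). Nerve and Schwann cell markers, Ngfr among them, summed to 20.7 to 58.2 and 86.2 to 97.5 TPM with none of 5 tested past the threshold. Their part in the members' changes was not tested.

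Lymphocyte markers, Thy1 among them, summed to 4.64 to 6.68 TPM at E16 and, higher in every library, to at most 16.6 TPM at E18, with 1 of 4 tested higher. Cd3g, a chain of the T cell receptor complex, was at 0 in every E16 library and at most 0.419 TPM at E18. Cd3e measured 0.400, 0.157 and 0.369 TPM at E16 and 0.967, 0.432 and 2.17 TPM at E18, highest in E18 replicate C like Thy1. Lck lay between 1.41 and 3.24 TPM in every library. None of the 8 skeletal and heart muscle markers reached a mean of 1 TPM, and 6 of them were under 1 TPM in every library. Hepatoblast markers summed to 173694 to 220440 TPM at E16 and 40432 to 98459 TPM at E18, with 6 of 8 lower, and cholangiocyte markers to 709 to 2419 and 7919 to 13694 TPM, with 8 of 8 higher. Without E18 replicate A 1 of the 8 was higher, without E18 replicate B 3 and without E18 replicate C 5, and without any 1 of the E16 libraries or E18 replicate A the count of lower hepatoblast markers was 2. After median-of-ratios scaling 4 of the 8 cholangiocyte markers were higher and 5 of the 8 hepatoblast markers lower, and after quantile normalization 4 and 3. With no filter on low values the counts were 4 and 2. The sum of the 10 members was therefore small beside either epithelial set. Within E18, replicate C had the highest member sum and the lowest cholangiocyte sum. What part these shifts had in the members' changes was not tested.

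**Figure D5:**
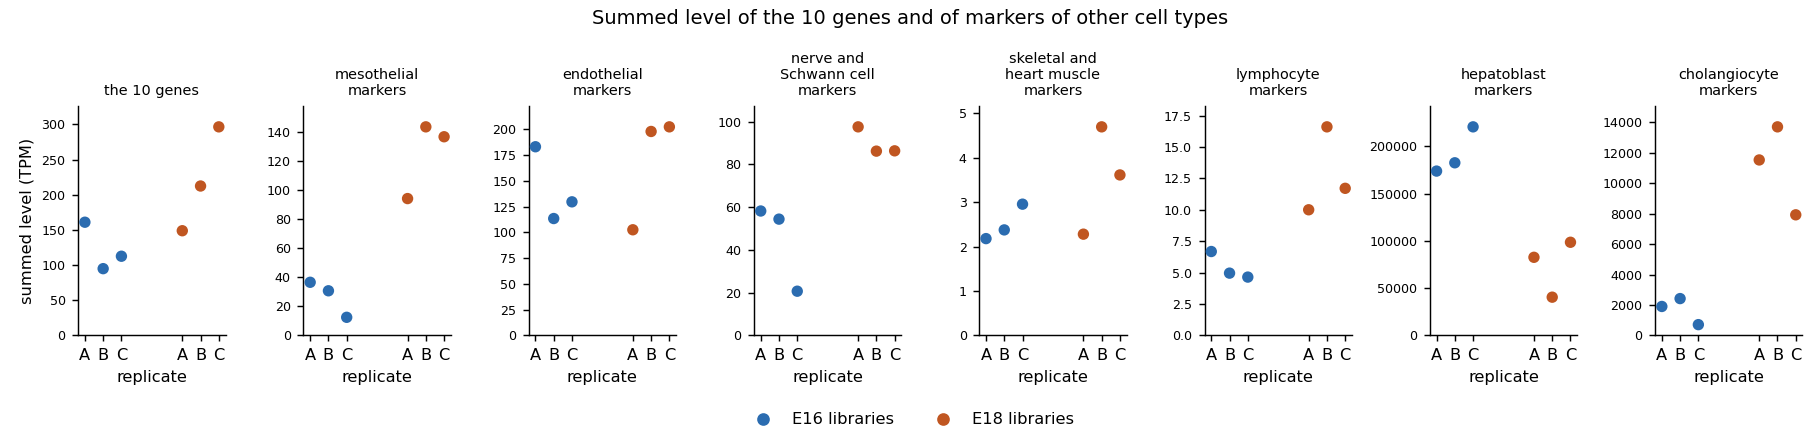
Summed TPM (vertical axis, a separate linear scale from 0 per panel) of the 10 genes and of the markers of 7 other cell types in replicates A, B and C at E16 (blue) and E18 (orange). Mesothelial and cholangiocyte markers are higher and hepatoblast markers lower in every E18 library, while the sum of the 10 genes overlaps between the stages.

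The genes most like the members were sought among 15345 others with a mean of at least 5 TPM, by the Pearson correlation over the 6 libraries with the mean of the members' standardized values. The closest were Gm38164, a processed pseudogene, at 0.997, Mrc2, a collagen receptor, at 0.997, Cldn5, an endothelial tight junction protein, at 0.990, Hmcn1, a matrix protein, at 0.989, and Adam12, a metalloprotease, at 0.988. In all, 266 genes were above 0.9. Mrc2 measured 6.17, 2.71 and 3.53 TPM at E16 and 5.32, 8.03 and 13.2 TPM at E18. These points share 6 libraries, and the correlations are a description.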

How the data were processed

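RNA from 6 libraries was measured, with stages and replicate letters taken from the sample labels. The authors aligned the reads with HISAT2 2.1.0 to GRCm38, counted them with HTSeq on GENCODE vM15 and deposited TPM for 52550 genes. Whether counting used strand is not given in the sources used here. Names, positions and exon lengths came from GENCODE vM21 on the same build (52403 identifiers matched, 147 did not). TPM times exon length was divided by the worth of 1 read in each library. The result was whole within 0.01 for 100% of 180057 values, all nonzero and from the 49035 genes whose identifier version was the same. Reads were recovered for 49583 genes. Acta2 was not among them, because its exon length of 2196 bases did not give whole reads. A length of 1781 bases, which did, was used for its reads. The recovered reads gave depth and exact 95% binomial intervals, which cover counting error only. For the comparison of stages limma 3.58.1 (R 4.3.3) was fitted with lmFit and a trended eBayes, and single genes also had exact permutation tests.

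The members, lists and tests were chosen with earlier results of these data known. Named were all members, up to 6 called genes of a list or else the 4 largest, genes near 0, actin paralogs and the 5 genes most like the members. Bambi, Pdgfb, Lrp8, Bex3, Col1a1 and Myh11 were named after their values were seen. Results for some listed genes are not reported here.

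The fit was tested on simulated data. A first run, asking for recovery over all levels, failed. Most of the larger changes were recovered only among genes of at least 5 TPM, and the requirement was then limited to those, so a missed call of a low gene such as Des or Ngfr says little. The alternatives were a pseudocount of 0.1, no filter, a mean of at least 5 TPM, 2 scalings, no trend, a replicate block and each library left out. Voom on the recovered reads and rescaling over protein-coding genes were chosen after seeing the data.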

Additional observations from a re-analysis of the deposited data

How the results depend on the processing

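Lrat, Pdgfra, Eln and Fbln2 stayed above 0 in all 15 alternatives, but their calls depended on scaling and on single libraries. Members past the threshold, 4 as reported, numbered 2 (Lrat and Eln) with no filter or without the trend, and 0 with median-of-ratios scaling or quantile normalization. Voom gave 4 and protein-coding rescaling 5. Leaving out 1 library gave 0 to 4 members, with 4 without E16 replicate A, 1 (Eln) without E16 replicate B, E18 replicate A or E18 replicate C, and 0 without E16 replicate C or E18 replicate B. All genes past the threshold, 7000 as reported, numbered 4282 with no filter, 3795 with median-of-ratios scaling and 3787 with quantile normalization, and 1472 (without E18 replicate A) to 5686 (without E18 replicate C) with 1 library left out.

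Of the fold changes not past the threshold, those of Des, Reln and Ngfr changed sign, and those of Pdgfrb and Acta2 stayed above 0 wherever they were fitted. Des was -0.21 with median-of-ratios scaling, -0.25 with quantile normalization, -0.073 with voom and -0.099 to 0.53 with 1 library left out. Reln was -0.14 with median-of-ratios scaling. Ngfr was -0.10 and -0.14 under the 2 scalings and -0.068 to 0.56 with 1 library left out. The retinoid list's median was -0.076 at a mean of at least 5 TPM, -0.32 and -0.11 under the 2 scalings, -0.030 with voom, and -0.084 to 0.10 with 1 library left out. The cause was not tested.

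With the letters as a replicate block 2 members (Lrat and Eln) and 7314 genes passed. Deviations of same-lettered libraries correlated at -0.04, 0.08 and 0.14. With so few libraries per stage, these values cannot decide whether same-lettered libraries were paired. Depth limits Thy1 most, at 2 to 24 reads.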
